A study of Mus musculus with 11 samples.

Results

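Integrins, laminins and the proteins that tie the basement membrane together were examined in RPE/choroidal RNA of aged mice 3 months after nanosecond laser treatment. Genes were chosen by name from the count table: every integrin alpha or beta chain and every laminin chain with a row there, the nidogens Nid1 and Nid2, perlecan (Hspg2) and agrin (Agrn). This gave 32 of the 14602 genes. By the same rule Itgav, Itgb5 and the integrin-binding proteins Itgb1bp1, Itgb1bp3 and Itgb3bp were left out. The 32 genes comprise 20 integrin chains, 7 laminin chains, 2 nidogens, 2 heparan sulfate proteoglycans and Itgbl1, whose name fits the rule although it encodes a secreted protein related to integrin beta chains and not a receptor.

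All 11 libraries came from C57BL/6J mice that were 12 months old at collection. The 5 laser treated libraries came from mice treated with the 2RT nanosecond laser when 9 months old. The 6 naïve control libraries came from age matched, untreated mice. The paper's methods give 6 samples in each group for RNA sequencing, and 5 laser treated libraries were available here. According to the study's methods the laser was applied as separate spots to a single eye of each mouse, and the neural retina was removed before lysis, so that each laser treated sample mixes treated and untreated RPE, and all samples hold the vessels, pigment cells and nerves of the choroid. The labels do not name the animal behind each library, and the p-values measure the spread between these libraries.

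Epithelial and endothelial cells stand on a basement membrane, a sheet in which laminin trimers of an alpha, a beta and a gamma chain form a network that nidogens and perlecan join to type IV collagen. The cell holds on to this sheet through integrins, receptors of 1 alpha and 1 beta chain that span the plasma membrane and connect to the actin or keratin skeleton. In the outer retina the RPE rests on Bruch's membrane, which has the basement membrane of the RPE on its retinal side and that of the choriocapillaris, the capillary bed of the choroid, on the other.

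Total counts ranged from 25700881 to 38755994 per library. The 12 RPE markers summed to between 81388 and 136066 CPM, or counts divided by the TMM-scaled total of the library, so the RNA carried the RPE signature that the label names. Markers of neural retina were present all the same, with 7266 to 31129 CPM summed over 12 genes in naïve control and 5221 to 20979 CPM in laser treated libraries. Of these genes 3 (Cnga1, Gngt1 and Pdc) were lower after laser at an unadjusted p under 0.05 (edgeR), beside 7.68% of all genes. Their transcripts have 36.7% to 42.6% GC, and 19.5% of all genes under 45% GC were lower. With the trend of counts on GC content removed, as described below, the unadjusted p was 0.00991 for Gngt1, 0.0518 for Cnga1 and 0.0884 for Pdc (edgeR). The sums of laser treated 1, 2 and 5, from 5221 to 6241 CPM, were below that of every control, while those of laser treated 3 and 4 were 20979 and 20822 CPM. The part of the retinal markers in the differences between the groups was not tested. Naïve control 3 stood apart from the other controls, with the highest retinal sum. Among controls it had the lowest sums of endothelial, macrophage, skeletal muscle, fibroblast, melanocyte, myelinating cell, and pericyte and smooth muscle markers. It was the lowest control in 15 of the 32 genes, Lamb2, Itga3, Itga7 and Itgb4 included. In bulk RNA, fewer cells of a type and less RNA per cell cannot be told apart. The transcript files of the libraries carry a label, R1 for naïve control 1 to 3 and laser treated 1 and 2 or R2 for the others, and results are also given within each label.

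The integrin beta1 chain, which pairs with most alpha chains, led the list per unit of length. Itgb1 had 28.7 ± 6.15 CPM per kilobase of transcript (SD, n = 11 libraries). Nid2 followed with 25.3 ± 6.16 and Itga3, the alpha chain of the laminin receptor α3β1, with 19.6 ± 4.08 CPM per kilobase (SD, n = 11 each). The spreads of Itgb1 and Nid2 overlapped, and so did those of Nid2 and Itga3. Itgb8, whose product binds latent TGF-beta, had 10.1 ± 2.41 CPM per kilobase (SD, n = 11). The laminin beta chains Lamb2 and Lamb1 came next with 7.61 ± 3.60 and 7.27 ± 2.26 (SD, n = 11 each), a difference far smaller than their spread.

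**Figure D1:**
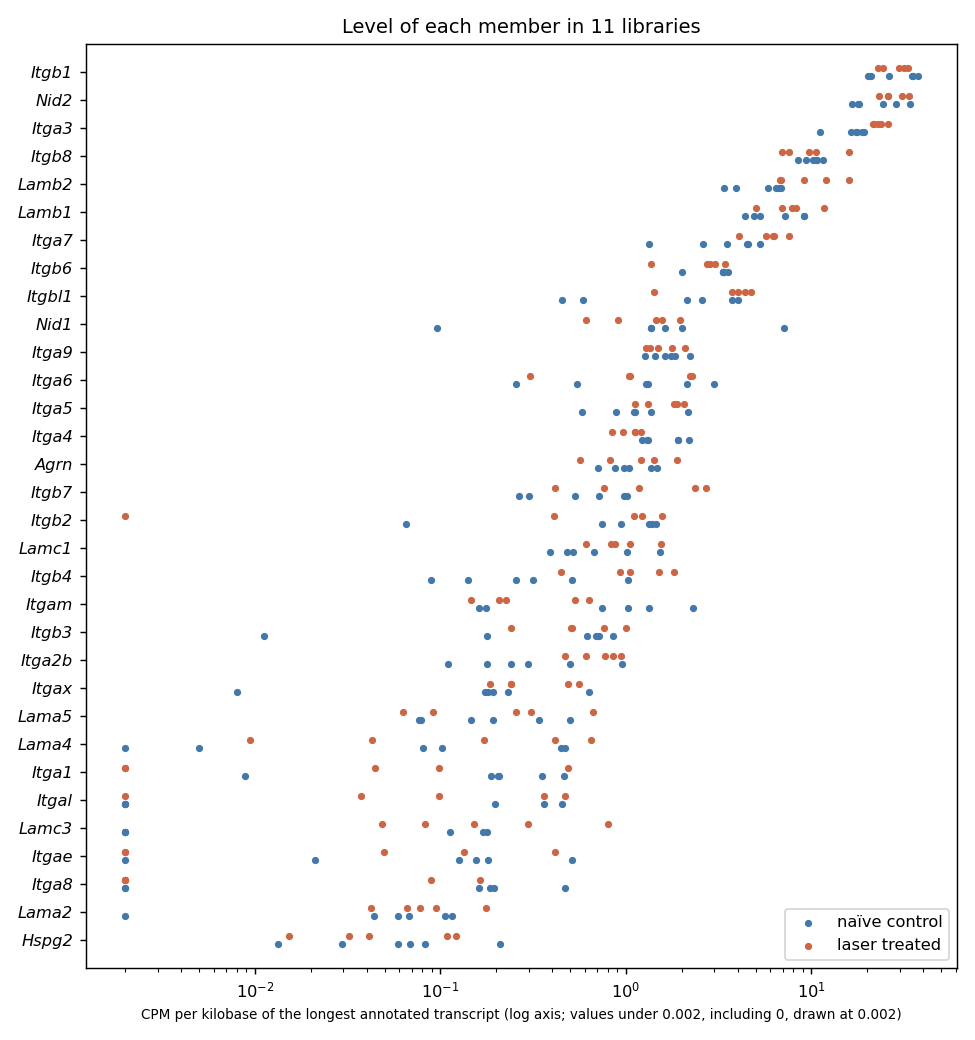
Level of each of the 32 genes in 11 libraries, in CPM per kilobase of the longest annotated transcript on a log axis, with naïve control libraries in blue and laser treated libraries in orange. Itgb1, Nid2 and Itga3 lead, the blue and orange points of most genes are interleaved, and in 8 genes at least 1 library is at 0.

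The lowest level per length was that of perlecan. Hspg2 had 0.0709 ± 0.0582 CPM per kilobase (SD, n = 11), Lama2, the laminin alpha chain of muscle and nerve, 0.0771 ± 0.0459 and Itga8 0.115 ± 0.145. Of the 32 genes, 16 had a mean of 5 CPM or more, and the control libraries of these varied by a median coefficient of variation of 28.9%. The other 16 varied by a median of 86.1%, and 8 of them had a library with 0 counts. The median standard error of the log2 fold change was 0.25 in the first 16 genes and 0.90 in the others, so in the low genes only a severalfold difference could have been detected.

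The comparison of the groups asked whether the genes of this adhesion system differed 3 months after the laser. With edgeR's quasi-likelihood test and Benjamini-Hochberg adjustment over all genes, 0 of the 32 genes had an adjusted p under 0.05, as did 0.0% of all genes tested, and the smallest adjusted p among the 32 was 0.177. At an unadjusted p under 0.05, 4 genes (12.5%) were higher after laser, beside 8.24% of all genes, and 1 (3.13%) was lower, beside 7.68% of all genes. The 4 higher genes were Lamb2, Itga3, Itgb4 and Itga7, and the lower gene was Itga4. The CPM of both groups stayed apart in 2 genes, Itga3 and Itga4, or 6.25%, beside 2.26% of all genes. DESeq2 gave an adjusted p to 7 of the 32 genes, and 2 of these passed 0.05, Lamb2 (adjusted p = 0.0342) and Itga3 (adjusted p = 0.0477), where 6.68% of all genes it adjusted did so. With limma voom the count at an adjusted p under 0.05 was 0.

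Over the 32 genes the median log2 fold change, laser treated against naïve control, was 0.25, where the median of all genes was -0.02. The log2 fold change was above 0 in 20 genes and below 0 in 12, beside 7081 and 7521 of all 14602 genes. All 7 laminin chains had a value above 0 in this fit, with a median of 0.48 and a range from 0.25 to 1.83. A single one of them, Lamb2, had an unadjusted p under 0.05. The sign of Lama5 was not determined, since its value was 0.32 in this fit and -0.26 with limma voom. The 20 integrin chains divided evenly, 10 above and 10 below 0, with a median of -0.02. The nidogens and the proteoglycans had 1 gene on each side.

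**Figure D2:**
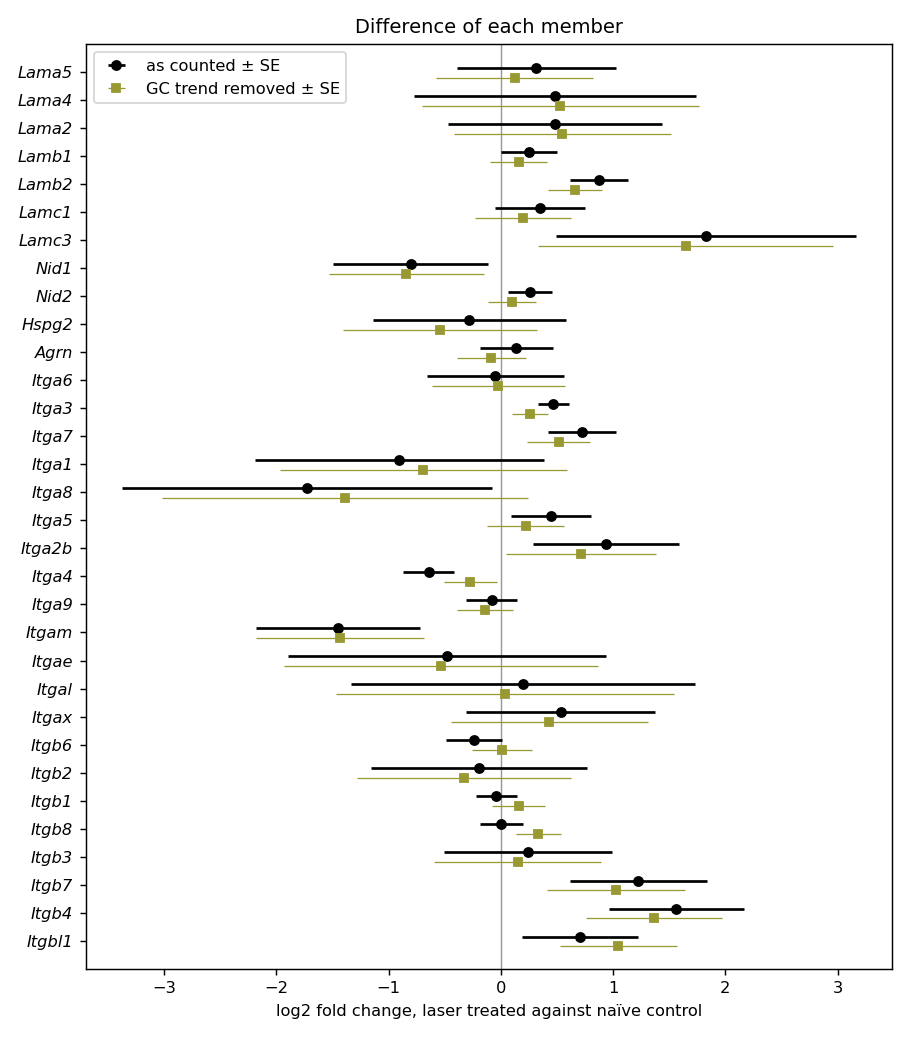
Log2 fold change of each of the 32 genes, laser treated against naïve control, as counted (black circles) and after removal of the trend on GC content (olive squares), with bars of 1 standard error. Lamb2, Itga3, Itgb4 and Itga7 lie to the right of 0 and Itga4 to the left, and the bars are longest in genes of low level such as Itga8, Itgal and Lamc3.

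The differences have to be read beside the base composition of the transcripts, because the fold changes of all genes varied with it. Genes with a transcript of 40% to 42% GC had a median log2 fold change of -0.35, and genes of 58% to 60% GC one of 0.31. The 4 genes that were higher had 57.8% to 60.0% GC in the longest annotated transcript, and Itga4, the lower gene, had 41.1%. Of the 32 genes, 11 had 55% GC or more. All 4 higher genes were among them, or 4 of 11, where 21.2% of all genes of that composition were higher at an unadjusted p under 0.05, and the median log2 fold change was 0.72 in the 11 genes against 0.28 in the 3301 genes of that composition. Of the 7 genes under 45% GC, 1 was lower, where 19.5% of all such genes were. The contrast can be seen in coding sequence. The 3 stretches below are 90 bases each, taken by rule from a fully coding exon at the place where GC content is nearest to that of the whole transcript, and capitals mark G and C.
Lamb2: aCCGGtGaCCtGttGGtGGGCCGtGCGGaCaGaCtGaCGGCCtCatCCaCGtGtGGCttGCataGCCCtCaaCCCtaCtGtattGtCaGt
Itgb4: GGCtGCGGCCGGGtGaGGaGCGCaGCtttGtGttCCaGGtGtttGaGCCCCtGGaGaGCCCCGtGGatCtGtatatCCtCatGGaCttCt
Itga4: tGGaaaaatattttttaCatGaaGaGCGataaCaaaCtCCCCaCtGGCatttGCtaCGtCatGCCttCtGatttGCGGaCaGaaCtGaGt
They lie on GRCm38, each on the plus strand and with GENCODE M21 exons: Lamb2 in exon 3 of 33 at chr9:108480352-108480441 (58.9% GC), Itgb4 in exon 5 of 40 at chr11:115979675-115979764 (60.0% GC) and Itga4 in exon 4 of 28 at chr2:79273008-79273097 (41.1% GC).

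With each library's trend of counts on GC content removed, Lamb2 and Itgb4 were higher at an unadjusted p under 0.05. These were 2 of the 32 genes, beside 3.84% of all genes. None of the 32 was lower, and the share of all genes lower in this fit is not given here. The median log2 fold change of the 32 genes was then 0.15. In no gene did the groups then stay apart without overlap. The 5 genes with an unadjusted p under 0.05 are therefore given below with their values after removal of this trend.

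**Figure D3:**
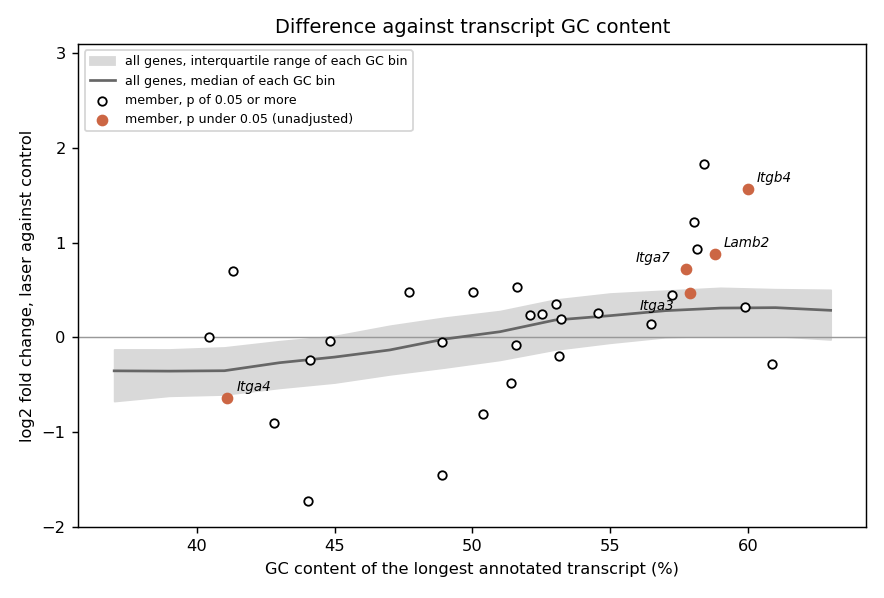
Log2 fold change against GC content of the longest annotated transcript, with the median (line) and interquartile range (grey band) of all genes in bins of 2 percentage points and the 32 genes as circles, filled where the unadjusted p was under 0.05. The line climbs from -0.35 to 0.31 between 40% and 60% GC. Itga3 lies inside the band, Itga4 just below it, and Itga7, Lamb2 and Itgb4 above it.

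Laminin beta2 is the beta chain of laminin-521 and related trimers and is found in the basement membranes of retina, kidney glomerulus and neuromuscular junction. Lamb2 (chromosome 9, 108479736 to 108490530) had 19.0 to 38.7 CPM in naïve control libraries, with a median of 34.5. The laser treated libraries had 38.7, 89.8, 51.6, 67.0 and 38.0 CPM in the order of replicates 1 to 5. All but laser treated 5 reached or passed the highest control. The mean was 31.0 CPM (n = 6, SD 8.41) against 57.0 CPM (n = 5, SD 21.8), and the log2 fold change was 0.88 with a standard error of 0.26 (edgeR, unadjusted p = 0.00449, adjusted p = 0.177). After removal of the GC trend the log2 fold change was 0.66 (edgeR, unadjusted p = 0.0162). Within label R1 it was 1.32 and within label R2 0.56, above 0 in both. Laser treated 2 also had the highest endothelial marker sum, 602 CPM, against 210 to 355 in the rest of its group and 126 to 356 in the controls; the part of this in the result was not tested, and without laser treated 2 the unadjusted p stayed under 0.05.

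Lamb1 encodes beta1, the chain that takes the place of beta2 in other laminins. It had 25.5 to 53.0 CPM in naïve control and 29.2 to 67.7 CPM in laser treated libraries, with a log2 fold change of 0.25 (standard error 0.25, edgeR adjusted p = 0.696). The level of Lamb2 per kilobase divided by that of Lamb1 had a median of 0.757 over the controls, with values from 0.637 to 1.36, of which naïve control 1 alone was above 1. In laser treated libraries the ratio was 1.36, 1.36, 1.31, 1.52 and 0.817. Per base of the longest annotated transcript, Lamb2 therefore exceeded Lamb1 in 4 of 5 laser treated and in 1 of 6 naïve control libraries. Which libraries pass 1 depends on the length used. The longest transcripts of Lamb2 and Lamb1 have 5629 and 5784 bases, and all their annotated exons together 6082 and 9917. With the exon lengths every library of both groups passes 1, so the counts above 1 hold for the transcript lengths alone. The longest transcripts have 58.8% and 52.5% GC, and the GC trend was not removed from the ratio. This ratio was formed after its values were seen and was given no test.

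The other laminin chains were low and variable. Lamc1, the gamma chain of most laminins, had 2.95 to 11.7 CPM in naïve control, with a median of 4.56, and 4.63, 11.7, 7.99, 6.62 and 6.31 CPM in laser treated libraries (log2 fold change 0.35, standard error 0.40). Its groups overlapped almost completely. Lama5, the alpha chain that laminin-511 and laminin-521 share, had 0.872 to 5.65 CPM in naïve control, with a median of 1.92, and 3.50, 1.03, 0.713, 2.89 and 7.60 CPM in laser treated libraries (log2 fold change 0.32, standard error 0.71). Lama2, Lama4 and Lamc3 had group means of 1.62 CPM or less. The largest laminin value, that of Lamc3, was a log2 fold change of 1.83 with a standard error of 1.33, and 3 controls were at 0 counts.

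Among linkers, nidogen-2 was far above nidogen-1. Nid2 had 80.4 to 167 CPM in naïve control, with a median of 103, and 126, 163, 113, 150 and 127 CPM in laser treated libraries (log2 fold change 0.26, standard error 0.19, edgeR adjusted p = 0.567). All laser treated libraries lay inside the range of the controls. On the opposite strand, exons of Rtraf, with a mean of 148 CPM, overlap 8.45% of the exonic bases of Nid2, and as the kit does not mark strand, reads from the overlap cannot be told apart. The log2 fold change of Nid1 was -0.80 with a standard error of 0.69, and it had 43.5 CPM in naïve control 4 where no other library was above 12.2. Agrn, a heparan sulfate proteoglycan that binds laminin and dystroglycan, had 6.07 to 12.6 CPM in naïve control, with a median of 8.72, and 7.03, 4.89, 16.3, 12.2 and 10.4 CPM in laser treated libraries (log2 fold change 0.14, standard error 0.33). Hspg2 had a control mean of 1.09 CPM (n = 6, SD 0.989) and a laser mean of 0.901 CPM (n = 5, SD 0.675).

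**Figure D4:**
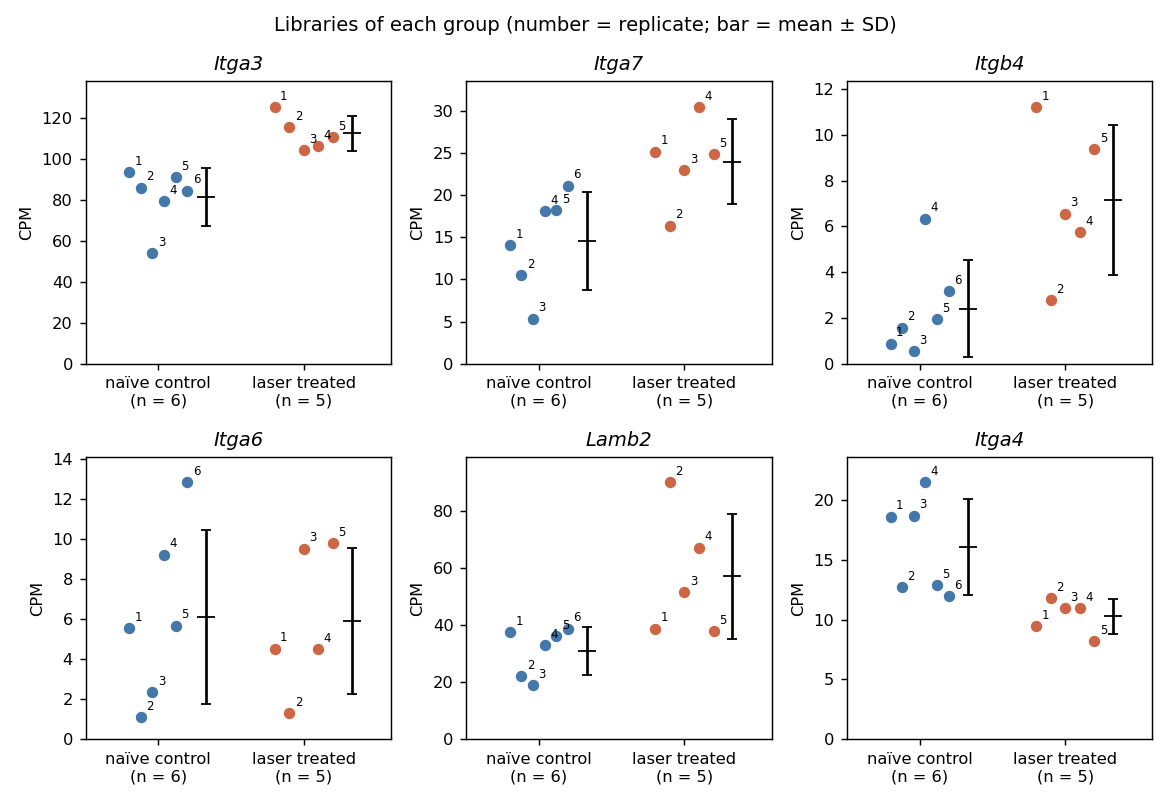
CPM of 6 genes in each naïve control library (blue, n = 6) and each laser treated library (orange, n = 5), with the replicate number beside each point and the mean ± SD as bars. The groups are apart in Itga3 and Itga4, overlap at their edges in Itga7, Itgb4 and Lamb2 and cover the same range in Itga6.

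The alpha chains Itga3, Itga6 and Itga7 make the classical laminin receptors, and the first and the last of them had an unadjusted p under 0.05. Itga3 (chromosome 11, 95044474 to 95076801) had 54.0 to 93.4 CPM in naïve control, with a median of 85.2, and 125, 116, 104, 106 and 111 CPM in laser treated libraries. Every laser treated library was above every control, and naïve control 3 was the lowest by far. With any 1 library left out, the unadjusted p was at most 0.0143 (edgeR). The mean was 81.4 CPM (n = 6, SD 14.3) against 112 CPM (n = 5, SD 8.47), and the log2 fold change was 0.47 with a standard error of 0.14 (edgeR, unadjusted p = 0.00482, adjusted p = 0.177). After removal of the GC trend it was 0.26 (edgeR, unadjusted p = 0.119), and within labels R1 and R2 it was 0.65 and 0.36.

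Itga7, the laminin receptor chain of muscle that smooth muscle of vessels and peripheral glia also carry, lies on chromosome 10 from 128933818 to 128958282. It had 5.36 to 21.1 CPM in naïve control, with a median of 16.1, and 25.2, 16.4, 23.0, 30.5 and 24.9 CPM in laser treated libraries. All but laser treated 2 were above the highest control. The log2 fold change was 0.72 with a standard error of 0.30 (edgeR, unadjusted p = 0.0328, adjusted p = 0.268). It was 0.52 after removal of the GC trend (edgeR, unadjusted p = 0.0886) and 1.08 and 0.47 within labels R1 and R2. The unadjusted p passed 0.05 no longer when naïve control 2 or laser treated 1, 4 or 5 was left out, with values up to 0.0882 (edgeR). The summed level of 12 markers of pericytes and smooth muscle was 204 to 325 CPM in naïve control and 351, 363, 241, 303 and 346 CPM in laser treated libraries, and 0 of the 12 had an unadjusted p under 0.05. That of 8 markers of myelinating cells was 406 to 644 CPM in naïve control and 604 to 1168 CPM in laser treated libraries, with 4 of the 8 higher. Their part in the difference of Itga7 was not tested.

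Integrin α6β4 is the laminin receptor of the hemidesmosome, the rivet that fixes basal epithelial cells to laminin-332, and Schwann cells and perineurial cells carry it as well. Itgb4 (chromosome 11, 115974709 to 116008412), the beta chain that pairs only with Itga6, was a gene of low level with 17 to 347 counts per library. The controls had 0.549 to 6.35 CPM with a median of 1.77, and naïve control 4 alone of them was above 3.17. The laser treated libraries had 11.2, 2.77, 6.56, 5.76 and 9.38 CPM. Laser treated 1, 3 and 5 were above every control, and laser treated 4 and 2 were not. The log2 fold change was 1.56 with a standard error of 0.60 (edgeR, unadjusted p = 0.0212, adjusted p = 0.238), 1.36 after removal of the GC trend (edgeR, unadjusted p = 0.0407), 2.82 within label R1 and 0.94 within label R2. Without laser treated 1 the unadjusted p was 0.0617 (edgeR).

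Its partner Itga6 (chromosome 2, 71745616 to 71858416) had 1.10 to 12.8 CPM in naïve control, with a median of 5.62, and 4.53, 1.30, 9.53, 4.50 and 9.80 CPM in laser treated libraries. The groups covered the same range, with a log2 fold change of -0.05 and a standard error of 0.61 (edgeR, adjusted p = 0.982). The sign of this value was not determined, since it was 0.09 with limma voom. Per kilobase, the ratio of Itgb4 to Itga6 had a median of 0.205 over controls, with a range from 0.110 to 1.00. Over laser treated libraries the median was 0.889, with a range from 0.478 to 1.72. The transcripts have 60.0% and 48.9% GC, and the GC trend was not removed from the ratio. The ratio was formed after the values were seen and has no test. Lama3 and Lamb3, which encode chains of laminin-332, have no row in the count table used here. The transcripts assembled for each library hold exonic pieces of Lama3 in 4 libraries and of Lamb3 in 3, with at most 7.72% and 17.9% of their exonic bases and with both groups among the libraries.

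The transcripts assembled for each library held 0% to 25.7% of the exonic bases of Itgb4 in naïve control libraries, with 0% in replicates 2 and 5, and 30.3%, 3.19%, 17.1%, 15.8% and 25.7% in laser treated libraries. Of 10 listed markers of myelinating cells, 8 had a row in the count table, and 4 of these (Mag, Mbp, Cnp and Sox10, which oligodendrocytes express as well as Schwann cells) were higher after laser at an unadjusted p under 0.05. After removal of the GC trend the unadjusted p of Sox10, which melanocytes share, was 0.0554 (edgeR), and those of Mag, Mbp and Cnp stayed under 0.05. The log2 fold changes of the most abundant gene of the list, Pmp22, and of Pllp and Prx were -0.05, -0.02 and -1.46. That of Cldn19 was 1.22 with a standard error of 1.61. The sum over the 8 genes was 406 to 644 CPM in naïve control and 1168, 684, 604, 772 and 926 CPM in laser treated libraries, and laser treated 1 and 5, with the highest sums, also had the most Itgb4. Of the markers that tell Schwann cells from oligodendrocytes, Egr2 and Ncmap had no row and Prx had 0 to 4.51 CPM. Of 12 listed markers of surface epithelium, keratinized or corneal, 9 had a row and 0 differed. Their sum was 233 to 1895 CPM in naïve control and 218 to 1501 CPM in laser treated libraries. It was highest in naïve control 6, with 3.17 CPM of Itgb4, and next in laser treated 5, with 9.38 CPM of Itgb4. Naïve control 4, with 6.35 CPM of Itgb4, had a sum of 1126 CPM, and laser treated 1, with 11.2 CPM, one of 276 CPM. The part of either cell type in the difference of Itgb4 was not tested. Exons of B230344G16Rik overlap 7.66% of the exonic bases of Itgb4 on the opposite strand.

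**Figure D5:**
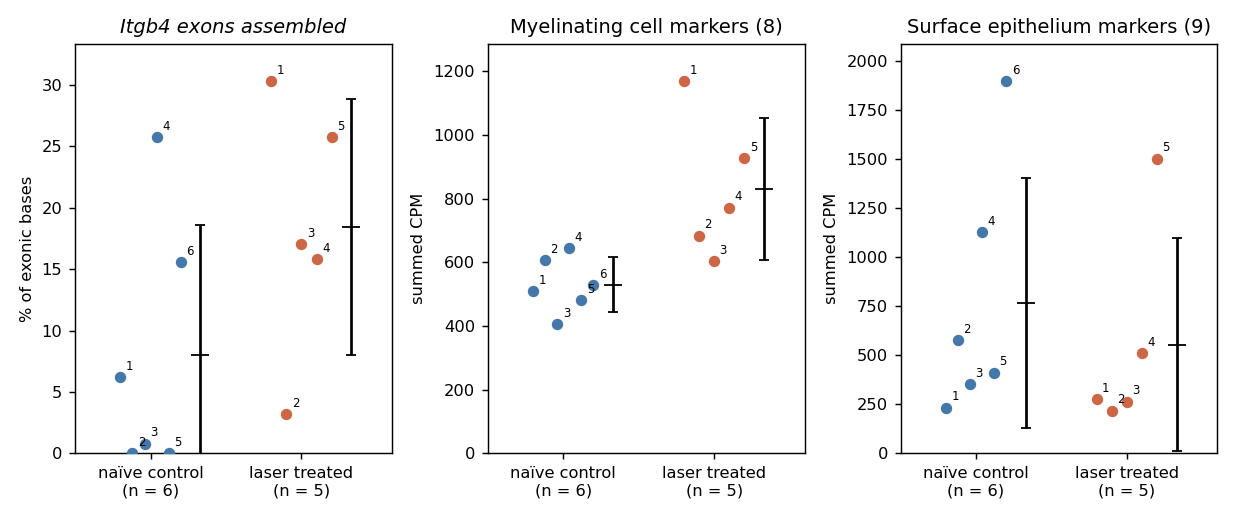
Share of the exonic bases of Itgb4 held by the assembled transcripts (left), summed CPM of 8 markers of myelinating cells (middle) and of 9 markers of surface epithelium (right) in each library, with the replicate number beside each point and the mean ± SD as bars. Laser treated 1 and 5 are highest of their group on the left and in the middle, and naïve control 6 is highest on the right.

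Integrin alpha4 forms the VCAM-1 and fibronectin receptor α4β1 and, with Itgb7, the homing receptor α4β7 of lymphocytes, and cells of the neural crest and pigment lineages also express it. Itga4 (chromosome 2, 79255426 to 79333123) had 11.9 to 21.4 CPM in naïve control, with a median of 15.7, and 9.42, 11.8, 11.0, 11.0 and 8.20 CPM in laser treated libraries. Every laser treated library was below every control, though the highest of them, laser treated 2, was close to the lowest, naïve control 6. The mean was 16.0 CPM (n = 6, SD 4.01) against 10.3 CPM (n = 5, SD 1.43), and the log2 fold change was -0.64 with a standard error of 0.22 (edgeR, unadjusted p = 0.0128, adjusted p = 0.21). It was -0.27 after removal of the GC trend (edgeR, unadjusted p = 0.266), and -0.63 and -0.60 within labels R1 and R2. Exons of Cerkl, with a mean of 6.83 CPM, overlap 8.04% of its exonic bases on the opposite strand. Per kilobase Itga4 was above each of the 4 leukocyte alpha chains, and of the 10 listed lymphocyte markers 2 had a row, with a summed level of 0.3 to 3.4 CPM.

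Of the other alpha chains, Itga9 and Itga5 were the best measured. Itga9, a receptor chain for tenascin and other matrix proteins, had 8.91 to 15.5 CPM in naïve control, with a median of 11.8, and 9.45, 14.6, 8.99, 10.4 and 12.5 CPM in laser treated libraries (log2 fold change -0.08, standard error 0.23). Itga5, the alpha chain of the fibronectin receptor, had 2.55 to 9.56 CPM in naïve control, with a median of 4.90, and 4.95, 5.79, 7.99, 9.08 and 8.36 CPM in laser treated libraries (log2 fold change 0.45, standard error 0.36). In both the groups overlapped. Itga1, the only collagen receptor alpha chain with a row, ranged from 0.0969 to 5.08 CPM in naïve control, with a median of 2.25, and had 0, 0, 0.485, 5.36 and 1.08 CPM in laser treated libraries. It had a log2 fold change of -0.91 with a standard error of 1.29, and 2 laser treated libraries at 0. Itga2b, the platelet chain, and Itga8 had log2 fold changes of 0.94 and -1.72 with standard errors of 0.65 and 1.65.

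The chains of leukocyte integrins were scarce. Itgam (CD11b), the chain of macrophages and microglia, had 0.759 to 10.8 CPM in naïve control, with a median of 4.15, and 0.971, 2.50, 0.685, 1.06 and 2.95 CPM in laser treated libraries. All laser treated libraries were below the control median, and 2 controls were as low as they were. The log2 fold change of Itgam was -1.45 with a standard error of 0.73 (edgeR, unadjusted p = 0.0671, adjusted p = 0.353). Annotated exons of Gm49368, which has no row in the count table, cover 68.7% of the exonic bases of Itgam on the same strand. How reads from this overlap were counted was not tested. The summed level of 12 macrophage markers was 316 to 1011 CPM in naïve control and 451 to 1033 CPM in laser treated libraries, and 0 of them differed at an unadjusted p under 0.05. Itgb2, the partner of Itgam, had a control mean of 2.92 CPM (n = 6, SD 1.57) and a laser mean of 2.55 CPM (n = 5, SD 1.89). Itgal, Itgax and Itgae had means of 1.39 CPM or less in both groups.

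The most abundant beta chains differed by less than the spread between libraries. Itgb1 had 76.6 to 143 CPM in naïve control, with a median of 116, and 92.6, 120, 86.9, 113 and 127 CPM in laser treated libraries, all of them inside the range of the controls. Its log2 fold change was -0.04 with a standard error of 0.18 (edgeR, adjusted p = 0.948). Itgb8 had a control mean of 85.0 CPM (n = 6, SD 9.16) and a laser mean of 85.2 CPM (n = 5, SD 30.3), with laser treated 1 at 135 CPM. Itgb6, the epithelial chain that also binds latent TGF-beta, had a control mean of 15.2 CPM (n = 6, SD 2.72) and a laser mean of 12.9 CPM (n = 5, SD 3.72). Itgb3 and Itgb7 were less abundant than these, with log2 fold changes of 0.24 (standard error 0.75) and 1.22 (standard error 0.61, edgeR unadjusted p = 0.0643). The secreted protein Itgbl1 had 1.84 to 16.3 CPM in naïve control, with a median of 9.55, and 17.9, 16.3, 5.74, 19.2 and 15.2 CPM in laser treated libraries (log2 fold change 0.70, standard error 0.52).

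The partners of these receptors and laminins, a list of 62 measured genes of integrin adaptors, other laminin receptors and further basement membrane proteins, had a median log2 fold change of 0.22, and 11 of them were higher and 2 lower at an unadjusted p under 0.05. This is 17.7% and 3.23%, beside the 8.24% and 7.68% of all genes. The smallest adjusted p was 0.174 (edgeR). The 5 with the smallest p among those higher were the focal adhesion adaptors Pxn (log2 fold change 0.46) and Zyx (0.64), the actin crosslinker Actn4 (0.52), the basement membrane collagen Col18a1 (0.55) and the matrix glycoprotein Sparc (0.59). Dmd, which encodes dystrophin and its retinal short form, and Rap1a, a small GTPase that activates integrins, were lower, with log2 fold changes of -0.59 and -0.38. After removal of the GC trend the log2 fold changes were 0.23 for Pxn, 0.47 for Zyx, 0.34 for Actn4, 0.32 for Col18a1, 0.50 for Sparc, -0.23 for Dmd and -0.03 for Rap1a.

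Of the other receptors for laminin, Bcam, which binds laminin alpha5, had a control mean of 26.8 CPM (n = 6, SD 11.2) and a laser mean of 46.9 CPM (n = 5, SD 20.5), and its log2 fold change was 0.81 with a standard error of 0.34 (edgeR, adjusted p = 0.264). Cd151, the tetraspanin that associates with laminin-binding integrins, had means of 37.4 CPM (n = 6, SD 5.80) and 50.2 CPM (n = 5, SD 8.53), and its log2 fold change was 0.43 with a standard error of 0.16 (edgeR, adjusted p = 0.223). With the GC trend removed these values were 0.57 for Bcam and 0.27 for Cd151. Dystroglycan (Dag1), with a log2 fold change of 0.26, and the integrin activators Tln1 and Fermt2, with 0.03 and -0.12, did not pass the unadjusted threshold. Nor did the type IV collagen genes Col4a1 and Col4a2, with -0.08 and 0.64 and standard errors of 0.52 and 0.39. After removal of the GC trend 2 of the 62 genes were higher at the unadjusted threshold, beside 3.84% of all genes. None of the 62 was lower, and the share of all genes lower in this fit is not given here. Sparc was the only one of the 13 above among the 2 (edgeR, unadjusted p = 0.0139).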

How the data were processed

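RPE/choroidal RNA of 11 samples was pre-amplified (SmartSeq v4) and made into NexteraXT libraries. The authors deposited raw counts per gene, whole numbers without normalization. The submitters' processing notes name STAR 2.5.3a, featureCounts 1.5.3, StringTie 1.3.3, edgeR 3.22.3 and mm10 (GRCm38); the strand setting is not given in the sources used here. The authors' deposited fold, p-value and statistic columns were not used. Their deposited StringTie coverage and TPM per assembled transcript served only to measure covered exonic bases.

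edgeR 4.0.16 (R 4.3.3; TMM, robust quasi-likelihood, Benjamini-Hochberg) was fitted on all 14602 genes; filterByExpr removed 0 and the common biological coefficient of variation was 0.58. GENCODE M21 gave length and GC content for 97.6% of genes; GC trends were loess fits (span 0.3). Precision at this depth is the standard error. Alternatives were DESeq2 1.42.0, limma 3.58.1 voom, upper quartile scaling, a mean of at least 1 CPM, no robust estimation, replicate block, label, GC and length terms, and each library left out. Methods were tested on simulated data. Genes given in full were those with an unadjusted p under 0.05 or groups that do not overlap, Lama3, Lamb3, Itga6 and Itgb4, and the highest per length in each role. The members and lists were chosen with earlier results of these data known. Some listed genes are not reported here.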

Additional observations from a re-analysis of the deposited data

Results flagged for a closer look

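The CPM of each gene was screened in each group for a library set far apart, which gave 7 cases in 64 screens, and about 5% of screens give such a case by chance. In naïve control 3, Itga3 had 54.0 CPM where the other controls had 79.4 to 93.4. In naïve control 4, Nid1 had 43.5 CPM where the others had 0.581 to 12.2. In naïve control 5, Itgb6 had 9.67 CPM where the others had 16.0 to 17.0, and Itgae had 1.98 CPM where the others had 0 to 0.695. Naïve control 1 had 2.97 CPM of Hspg2 where the others had 0.190 to 1.18, and naïve control 2 had 2.56 CPM of Itgax where the others had 0.0323 to 0.937. The single laser treated case was Itga1 in replicate 4, with 5.36 CPM where the others had 0 to 1.08.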

How the results depend on the processing

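With the GC trend removed, 2 genes were higher and 0 lower at an unadjusted p under 0.05, the median log2 fold change was 0.15, 2 adhesion partners passed and the groups overlapped in every gene (0 without overlap). With the GC trend removed and the replicate block, 4 genes were higher and 0 lower, the median was 0.27 and 11 partners passed; the 4 were Lamb2, Itgb4, Itga7 and Itgbl1. With the length trend removed, 0 genes were lower and 0 were without overlap. DESeq2 called 2 genes at an adjusted p under 0.05. At an unadjusted p under 0.05 it gave 2 lower genes, Itga4 and Itgam, and its higher genes then included Itgb7 (DESeq2, unadjusted p = 0.0465). The causes of these moves were not tested. The share of all genes called is not given for most settings here and below, so a change in these counts cannot be set against the whole table. The replicate numbers did not pair the libraries (correlations of same-numbered libraries from -0.003 to 0.268, and 2 of 5 laser treated libraries correlated best with their own number); with the replicate block 5 genes were higher and 1 lower, the median was 0.27 and 17 partners passed.

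With each library left out in turn, the higher genes numbered 2 (without laser treated 1) to 7 (without naïve control 4), the lower genes 1 to 2 (2 without naïve control 1, naïve control 5 or laser treated 5), genes without overlap 2 to 3, partners 8 (without naïve control 3) to 17, and the median lay between 0.076 (without laser treated 5) and 0.32. It was 0.15 without naïve control 3 or laser treated 4. The count at an adjusted p under 0.05 was 0 in each. Lamb2 had an unadjusted p under 0.05 in all 21 settings run on all libraries or without 1 library, Itgb4 in 20, Itga3 in 19, Itga4 in 18 and Itga7 in 16. In the 16 genes under 5 CPM, depth and spread leave standard errors of 0.60 to 1.65.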
